A study of Mus musculus with 8 samples.

Results

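The genes H2-D1, H2-K1, B2m, Tap1, Tap2, Tapbp and Nlrc5 carry the classical MHC class I pathway, which shows peptides on the cell surface. They are 7 of the 30211 genes in the count matrices, and each symbol matched 1 row. They were taken by symbol after their levels per cell type and library, within each date of the deposited file names, had been seen in these same data, so the members were chosen by those levels. The levels across cell types are therefore a description, with no test. The same values per mouse enter the comparison of GKO with WT, so counts of members whose groups do not overlap are a description too.

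The study sequenced RNA from single nuclei of the hippocampus of mice, with the strain labelled C57BL/6 (C57BL/6N in the paper), to ask what loss of Gsap, a protein tied to APP processing, changes in each cell type. Each of the 8 libraries came from 1 mouse. The WT group (wild type) and the GKO group (genotype GSAP -/-) held 3 mice each, aged 7 months. The J20;WT group and the J20;GKO group held 1 mouse each, aged 6 months. In GKO mice, exons of Gsap flanked by loxP sites were deleted in all tissues with a CMV-Cre driver line, so loss in a single cell type cannot be told apart from loss elsewhere. J20 mice express a mutant human APP transgene (Swedish and Indiana variants) driven by PDGFB promoter sequence, which is mainly active in neurons, and J20;GKO mice carry that transgene with the Gsap deletion.

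The filtered data held 32041 nuclei of 33314 barcodes (96.2%). WT 1, WT 2 and WT 3 gave 5252, 4605 and 2953 nuclei, GKO 1, GKO 2 and GKO 3 gave 3713, 4736 and 4716, J20;WT gave 3335 and J20;GKO gave 2731. Total counts ranged from 21020159 UMIs (J20;WT) to 43310978 UMIs (WT 1), where a UMI is a counted RNA molecule. The median nucleus held between 4579 UMIs (WT 1) and 6438.5 UMIs (GKO 3).

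The file names carry 3 dates. WT 1 and GKO 1 carry the first date, WT 2, WT 3, GKO 2, GKO 3 and J20;GKO the second, and J20;WT has a date of its own. The J20 libraries therefore differ from each other in date as well as in genotype, and these cannot be told apart. Pairs of libraries shared between 2 and 21 cell barcodes, and 280 nuclei (0.874%) had a barcode found in another library.

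The labels were compared with the level of Gsap over all nuclei, in CPM (counts scaled by the sum over genes). It was 22.5, 22.98 and 22.3 CPM in WT 1, WT 2 and WT 3. It was 19.8, 21.8 and 21.99 CPM in the libraries labelled GKO 1, GKO 2 and GKO 3, 19.9 CPM in J20;WT and 21.1 CPM in J20;GKO. The WT and GKO values did not overlap but lay close together, and counts over the whole gene do not show which exons were read. Within cell types, the log2 fold change of Gsap was above 0 in excitatory neurons (0.08), inhibitory neurons (0.13), astrocytes (0.02) and OPC (0.12) and below 0 in microglia (-0.20), so its direction differed between types. Xist, transcribed from the inactive X chromosome, was at 2259 CPM in WT 1, 2135 CPM in GKO 1 and 2410.0 CPM in J20;GKO. Xist was at most 3.00 CPM in the others, so the mice were of both sexes and the WT and GKO groups each held 1 mouse with high Xist, on the same date.

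A class I molecule is a heavy chain, encoded by H2-D1 or H2-K1, bound to the light chain beta-2 microglobulin, encoded by B2m. Peptides from the proteasome are pumped into the endoplasmic reticulum by the transporter that Tap1 and Tap2 form together, tapasin (Tapbp) holds the transporter and the empty class I molecule side by side, and Nlrc5 is the transcription factor partner that switches on this set of genes. In brain, class I is known to be low in most neurons, high in vessel-lining cells and in immune cells such as microglia, and raised by interferon.

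Of the 7 genes, 5 lie on chromosome 17 (GRCm38), in the mouse MHC. H2-K1 (ENSMUSG00000061232) lies on the minus strand at chr17:33996017-34000347 and H2-D1 (ENSMUSG00000073411) on the plus strand at chr17:35262730-35267499. Tapbp, Tap1 and Tap2 lie between these positions or just before them on the plus strand, and the end of Tap1 is 6302 bp from the start of Tap2. B2m (ENSMUSG00000060802) is on chromosome 2 and Nlrc5 (ENSMUSG00000074151) on chromosome 8.

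The promoters of both heavy chain genes and B2m are shown because these genes were high in the same cell types. RefSeq's table for GRCm38.p6 held a promoter for 5 of the 7 genes. Tap2 and Nlrc5 were not in it. The 250 bases before RefSeq's start are written 5′ to 3′ on the gene's strand, for H2-D1 (chr17:35262844-35263093, plus strand), H2-K1 (chr17:34000348-34000597, minus strand) and B2m (chr2:122147437-122147686, plus strand). In GENCODE's model the gene H2-D1 starts before this window, so the window lies inside that model. Capitals mark matches, on either strand, to GGGGATTCC (a kappa B motif), GAANNGAAA and GAAANNGAA (interferon response motifs), TGACG (the core of the X2 box) and CCAAT (the Y box).
H2-D1: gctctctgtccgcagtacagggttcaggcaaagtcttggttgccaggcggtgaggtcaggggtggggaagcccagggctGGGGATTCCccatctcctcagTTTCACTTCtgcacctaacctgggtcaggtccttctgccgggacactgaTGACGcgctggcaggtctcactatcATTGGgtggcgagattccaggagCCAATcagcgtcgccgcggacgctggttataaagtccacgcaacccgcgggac
H2-K1: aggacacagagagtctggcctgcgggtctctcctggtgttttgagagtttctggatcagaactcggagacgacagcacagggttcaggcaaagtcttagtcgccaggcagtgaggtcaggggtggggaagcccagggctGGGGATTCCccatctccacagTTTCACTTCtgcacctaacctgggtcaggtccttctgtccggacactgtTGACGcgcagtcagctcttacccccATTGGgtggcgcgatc
B2m: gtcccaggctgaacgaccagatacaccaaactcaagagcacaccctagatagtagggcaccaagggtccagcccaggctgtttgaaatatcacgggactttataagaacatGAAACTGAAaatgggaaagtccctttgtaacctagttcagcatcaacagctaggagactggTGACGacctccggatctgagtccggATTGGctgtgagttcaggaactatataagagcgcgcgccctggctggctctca

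No marked match overlaps another. GGGGATTCC was found in H2-D1 and H2-K1 and in 0.213% of the 32851 promoters in the table, and not in the windows of B2m, Tap1 or Tapbp. GAANNGAAA was also found in both heavy chain genes (6.31% of all promoters), and GAAANNGAA in B2m (7.13%). TGACG was found in H2-D1, H2-K1, B2m and Tap1 (17.8% of all promoters), and CCAAT in all 5 (33.8%). The windows of H2-D1 and H2-K1 had the matches in the same order, with 21 bases from the start of GGGGATTCC to that of GAANNGAAA and 49 bases from there to TGACG. The distance from TGACG to the next CCAAT match was 25 bases in H2-D1, H2-K1 and B2m. Of 190 aligned bases, 174 (91.6%) were identical between H2-D1 and H2-K1, against 66% to 77% for the other 9 pairs. A match is a description of the letters and does not show that a factor binds there.

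Nuclei were assigned to 14 cell types by marker genes, and 14.8% of nuclei met no type's limits. The types held 12328 excitatory neurons, 1619 inhibitory neurons, 127 Cajal-Retzius cells, 2690 astrocytes, 7048 oligodendrocytes, 984 oligodendrocyte precursors (OPC) and 1994 microglia. The rarer types were fibroblasts (157), mural cells (115), choroid plexus epithelium (113), endothelial cells (60), border macrophages (51), ependymal cells (13) and T or NK cells (9). Levels are CPM in the summed counts of a type in each library with at least 10 nuclei of that type, given as mean ± SD over these libraries. Cx3cr1, a marker of microglia, and Flt1, a marker of endothelial cells, were high where they belong, with Cx3cr1 at 1920.0 ± 481 CPM in microglia (n = 8 libraries) and Flt1 at 4197 ± 1468 CPM in endothelial cells (n = 3). Other types were mixed. By median, fibroblasts held 5666 CPM of astrocyte markers against 5138 CPM of their own, ependymal cells 3214 against 2164 CPM, and mural cells 5533 against 10630.0 CPM. Border macrophages held 8287 CPM of microglia markers against 14730.0 CPM of their own, so levels in these types may include RNA of other cells.

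The heavy chain gene H2-D1 was highest in endothelial cells, at 606 ± 72.1 CPM (n = 3). It was 539 CPM in WT 1, 683 CPM in GKO 2 and 596 CPM in GKO 3, so all 3 libraries lay above every library of every other type. A group of 5 types followed at 242 CPM in border macrophages (n = 1), 208 ± 71.8 CPM in fibroblasts (n = 8), 199 ± 85.6 CPM in microglia (n = 8), 177 ± 64.3 CPM in mural cells (n = 5) and 118 ± 23.4 CPM in OPC (n = 8). Each neighbour in that group differed from the next by less than the larger SD. The step from OPC to oligodendrocytes, at 45.3 ± 33.5 CPM, was larger than the spread and was seen in 8 of 8 libraries. Below it came astrocytes (41.1 ± 9.09 CPM), Cajal-Retzius cells (33.1 ± 27.6 CPM, n = 7), inhibitory neurons (16.7 ± 4.75 CPM), excitatory neurons (13.8 ± 3.47 CPM) and choroid plexus epithelium (13.6 ± 5.65 CPM, n = 4), with no step beyond the spread between neighbours.

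H2-K1, the other heavy chain gene, was at 599.8 ± 291 CPM in endothelial cells, above fibroblasts in 3 of 3 libraries. Fibroblasts (210.4 ± 81.7 CPM), microglia (195 ± 86.1 CPM), astrocytes (119.8 ± 21.7 CPM), mural cells (103 ± 93.9 CPM) and border macrophages (96.8 CPM, n = 1) followed, with no step between neighbours beyond the spread. Pooled over libraries, all 51 border macrophages gave 343 CPM of H2-K1 (95% Poisson interval 249.9 to 458) and 540.5 CPM of H2-D1 (422 to 682), above the 1 library with enough nuclei, so their place in the order is uncertain. Astrocytes stood higher in the order for H2-K1 than for H2-D1. A step, seen in the 1 library with both, led from border macrophages to OPC (66.1 ± 18.8 CPM). It was larger than the SD of OPC, but border macrophages had no SD and only 10 nuclei in that library. Cajal-Retzius cells (33.0 ± 33.4 CPM), choroid plexus epithelium (23.3 ± 16.4 CPM) and oligodendrocytes (23.3 ± 8.64 CPM) came next. The lowest were inhibitory neurons (4.94 ± 1.81 CPM) and excitatory neurons (2.78 ± 0.836 CPM), and both of these steps were larger than the spread.

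The light chain gene B2m was at 389.9 ± 129 CPM in endothelial cells, 333 ± 60.4 CPM in microglia and 315 CPM in border macrophages (n = 1), which did not differ beyond the spread. Fibroblasts (98.3 ± 47.3 CPM), mural cells (74.4 ± 65.6 CPM), astrocytes (49.3 ± 16.9 CPM) and OPC (49.2 ± 19.6 CPM) formed a middle group. Choroid plexus epithelium (22.2 ± 11.5 CPM), oligodendrocytes (20.5 ± 16.1 CPM), excitatory neurons (10.2 ± 2.19 CPM) and inhibitory neurons (9.78 ± 3.25 CPM) were lower. No B2m UMI was counted in Cajal-Retzius cells in 7 of 7 libraries. A count of 0, taken as allowing up to 3 UMIs, allows between 38.0 CPM (GKO 1) and 96.6 CPM (J20;WT) per library. Pooled over all 127 nuclei, the upper end of the 95% Poisson interval was 8.59 CPM, both for counting error only.

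The transporter genes were sparser. Tap1 was at 37.2 ± 35.2 CPM in endothelial cells (n = 3), 19.2 ± 9.68 CPM in microglia and 16.3 ± 15.4 CPM in mural cells, while excitatory neurons had 0.695 ± 0.137 CPM. Tap2 was at 103 ± 27.7 CPM in mural cells (n = 5), 72.2 ± 91.5 CPM in endothelial cells and 70.5 ± 18.5 CPM in microglia. Neither gene had a step beyond the spread among its highest types. Oligodendrocytes were near the bottom for both transporter genes, with 4 Tap1 UMIs in 7048 nuclei and a Tap2 level of 2.71 ± 1.29 CPM, which was below that of excitatory neurons (5.01 ± 1.67 CPM) in 8 of 8 libraries.

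Tapbp, for tapasin, was at 97.5 ± 30.6 CPM in microglia, 91.6 ± 49.8 CPM in fibroblasts, 73.3 ± 28.0 CPM in endothelial cells and 72.6 CPM in border macrophages. It was at 34.4 ± 6.15 CPM in astrocytes, 19.3 ± 4.21 CPM in OPC, 14.8 ± 2.93 CPM in oligodendrocytes, 8.99 ± 2.47 CPM in inhibitory neurons and 8.88 ± 1.02 CPM in excitatory neurons. The steps from astrocytes to OPC, from OPC to oligodendrocytes and from oligodendrocytes to inhibitory neurons were larger than the spread. Nlrc5, the transactivator, was at 80.2 ± 78.8 CPM in endothelial cells, 24.2 CPM in border macrophages (n = 1) and 22.5 ± 9.67 CPM in microglia. All 51 border macrophages pooled gave 99.0 CPM of Nlrc5 and all 60 endothelial cells 46.9 CPM. Their Poisson intervals overlapped, so the order of these types is uncertain. Nlrc5 was at 7.87 ± 1.34 CPM in excitatory neurons, near OPC (8.29 ± 4.34 CPM) and astrocytes (7.63 ± 4.39 CPM). Pooled over libraries, Nlrc5 was at 7.96 CPM in excitatory neurons and 8.13 CPM over all nuclei, while H2-K1 was at 2.81 and 18.4 CPM. No Nlrc5 UMI was counted in the 115 mural cells.

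**Figure D1:**
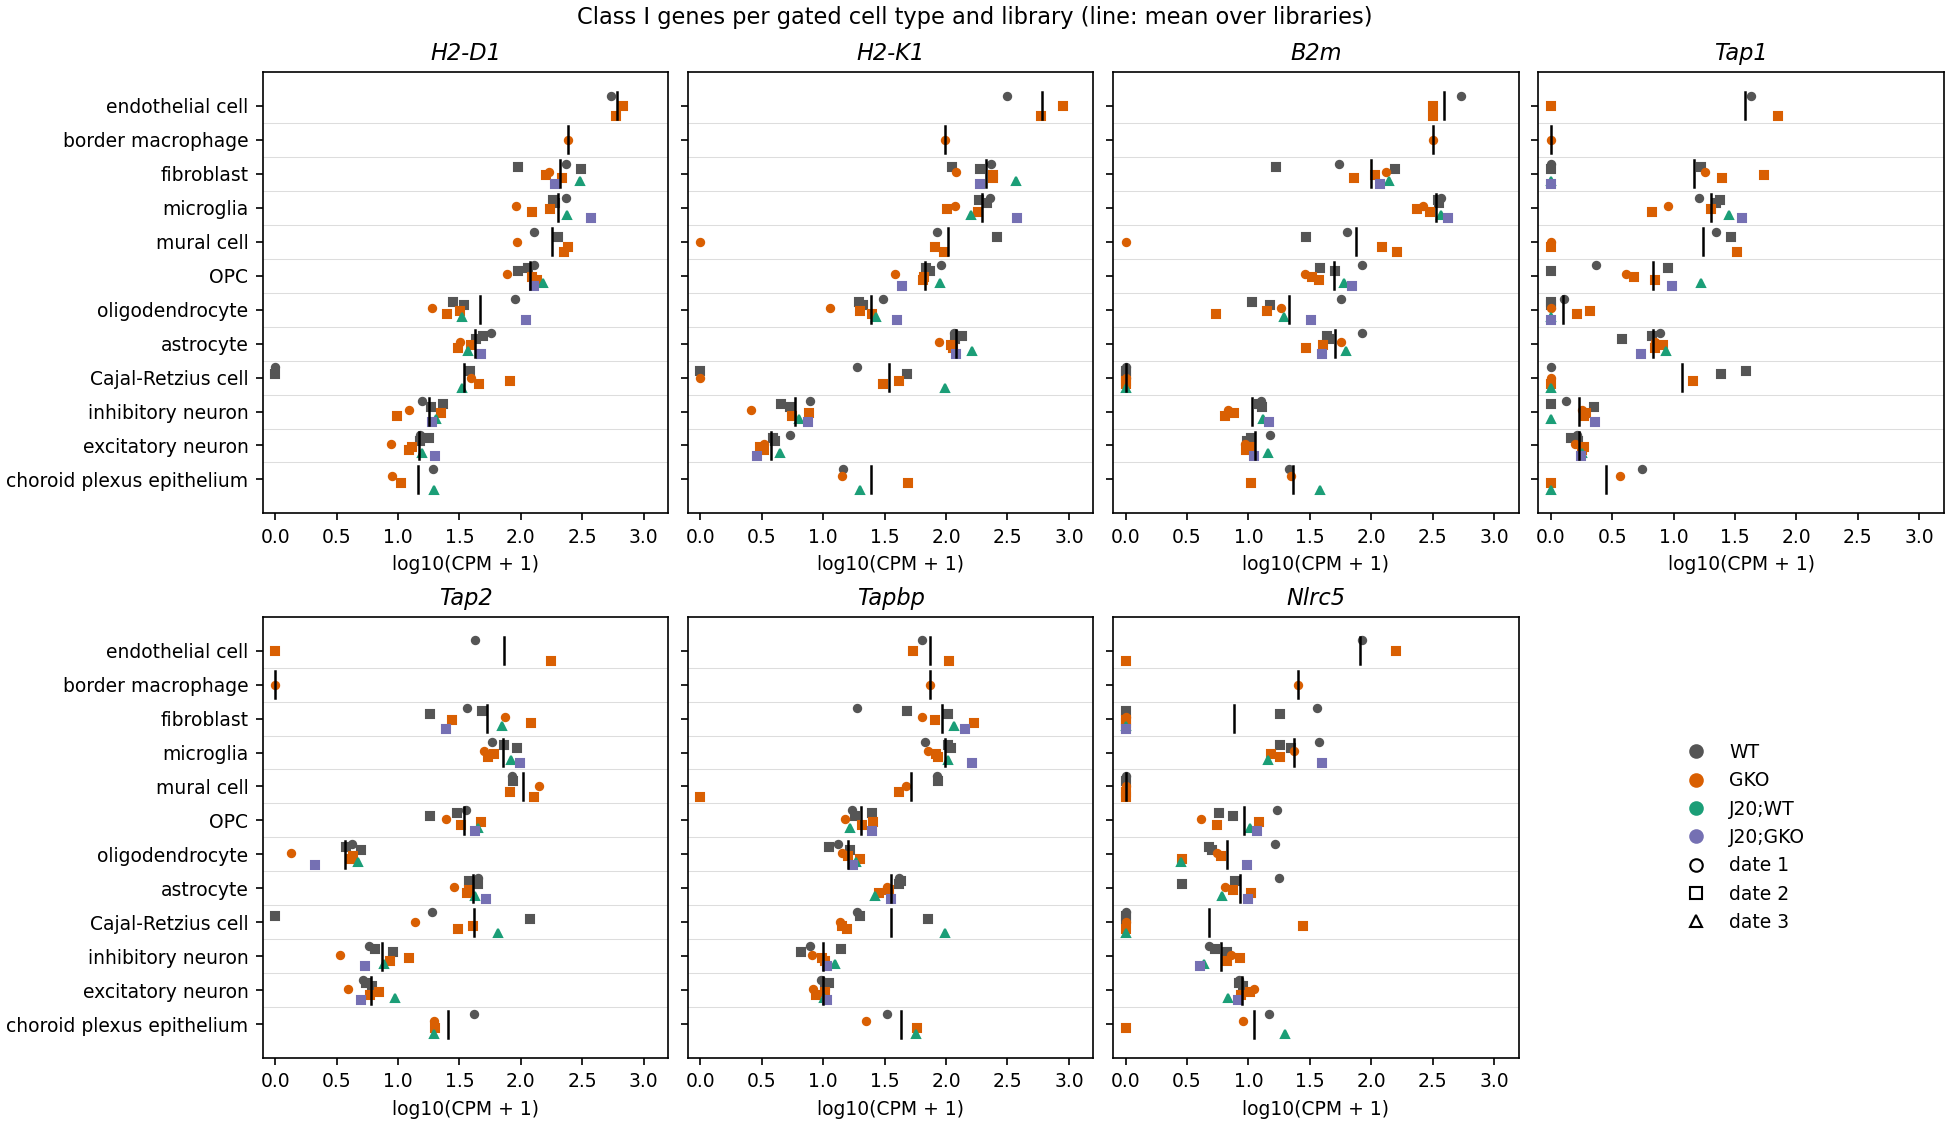
Each panel plots log10(CPM + 1) of a class I gene on the x axis for each gated cell type on the y axis, with a point per library (colour for the group, shape for the date in the file name) and a line at the mean. Endothelial cells lead for H2-D1 (606 CPM) and H2-K1 (599.8 CPM), and excitatory neurons have the lowest H2-K1 (2.78 CPM), followed by inhibitory neurons.

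The 9 T or NK cells were too few for a value per library. Pooled over libraries they held 39 H2-D1 UMIs, which is 1635 CPM (95% Poisson interval 1163 to 2236), 68 H2-K1 UMIs, which is 2852 CPM (2214 to 3615), and 18 B2m UMIs, which is 755 CPM (447 to 1193). These pooled levels were the highest of any type for the 3 genes, but they rest on 9 nuclei, of which 7 fell into the unsupervised cluster named for border macrophages. That cluster held 106 nuclei and was led by Cd74, Lyz2 and H2-Aa. Over all its nuclei, H2-D1 was at 851 CPM, H2-K1 at 855 CPM, B2m at 504 CPM and Nlrc5 at 154 CPM, the highest of all clusters for each of these genes. Per library with at least 10 nuclei there (n = 5), H2-D1 was at 1023 ± 434 CPM and H2-K1 at 912 ± 327 CPM, above the gated border macrophages, which had enough nuclei only in GKO 1. Only 48.1% of the cluster's nuclei were gated as border macrophages, so its levels are not those of border macrophages alone. Pooled gated border macrophages lay below pooled endothelial cells for both heavy chains. The pooled endothelial cells had 569 CPM of H2-D1 (455 to 704) and 509 CPM of H2-K1 (401 to 637), with intervals that overlapped those of border macrophages. Tap1 and Tap2 had the same pooled order. Border macrophages were the higher for B2m (411 against 362 CPM), Tapbp (129 against 87.1 CPM) and Nlrc5 (99.0 against 46.9 CPM), again with overlapping intervals. The 60 gated endothelial nuclei fell mostly (98.3%) into a cluster of 244 nuclei led by Cldn5 and Flt1, with a median of 822 UMIs, that was left unnamed because excitatory neuron markers were too high in it. In that cluster H2-D1 was at 309 ± 164 CPM and H2-K1 at 341 ± 241 CPM (n = 8 libraries), lower than in the gated endothelial nuclei.

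The ratio of H2-K1 to H2-D1 UMIs within a type and library needs no scaling by depth, and it differed between types. In astrocytes there were 3.02 ± 0.782 H2-K1 UMIs per H2-D1 UMI (lowest library 2.04, highest 4.54, n = 8). In microglia the ratio was 1.03 ± 0.299 and in fibroblasts 1.04 ± 0.286. In oligodendrocytes it was 0.620 ± 0.217, in OPC 0.566 ± 0.141 and in excitatory neurons 0.212 ± 0.0690. Every astrocyte library lay above every library of every other type, and the highest excitatory neuron library (0.309) lay below the lowest OPC library (0.339). Of 435 bases aligned between the last 500 of the H2-D1 and H2-K1 transcripts, 349 (80.2%) were identical. In these ends 0 of 411 stretches of 90 bases occurred in another gene's transcript. Reads can thus mostly be told apart, but near-identical reads may be assigned to the wrong gene.

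**Figure D2:**
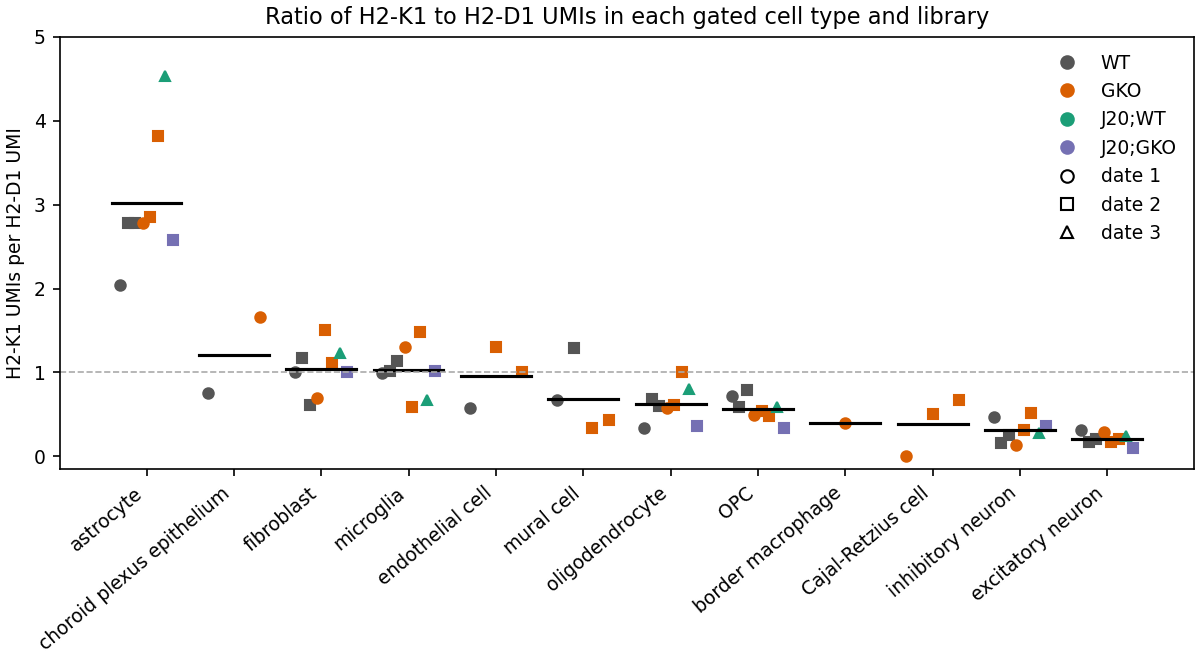
The y axis is the number of H2-K1 UMIs per H2-D1 UMI in each gated cell type on the x axis, with a point per library and a line at the mean. Astrocytes (3.02) sit above the dashed line at equal counts in every library and excitatory neurons (0.212) below it.

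Most astrocytes fell into a pair of clusters that differed in class I level. In the larger, led by Etnppl and Grin2c (2316 nuclei), H2-D1 was at 32.1 ± 7.71 CPM, H2-K1 at 115 ± 21.5 CPM and B2m at 42.5 ± 13.3 CPM. In the smaller, led by Myoc, Cxcl5 and Gfap (387 nuclei), H2-D1 was at 94.4 ± 31.3 CPM, H2-K1 at 177 ± 52.5 CPM and B2m at 88.2 ± 57.0 CPM (n = 8 libraries for each). Of the smaller cluster's nuclei, 74.9% were gated as astrocytes and 10.6% called doublets, against 98.9% and 0.302% in the larger, and it held 10 of the 13 ependymal nuclei, so the split is not one of astrocytes alone. H2-D1, H2-K1 and B2m were among the 2000 genes from which clusters were made, and Tap1, Tap2, Tapbp and Nlrc5 were not. Tapbp was at 31.1 ± 5.97 CPM in the larger astrocyte cluster and 58.8 ± 21.3 CPM in the smaller, a description with no test.

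Depth differs between types, so the share of nuclei with a UMI was taken after thinning each nucleus to 1000 UMIs, with shallower nuclei left out (211 in WT, 124 in GKO, 63 in J20;WT and 19 in J20;GKO). Excitatory neurons (median 10678 UMIs) served as the reference, and other types were lower for some of the genes. An H2-D1 UMI was found in 15.1 ± 5.47% of microglia (median 1946.5 UMIs) and 1.24 ± 0.396% of excitatory neurons, against 26.1% and 14.0% without thinning. For B2m the shares were 26.0 ± 4.54% of microglia and 1.10 ± 0.288% of excitatory neurons, against 43.1% and 11.2% without thinning. For H2-K1 they were 15.9 ± 5.03% of microglia, 10.9 ± 1.83% of astrocytes and 0.246 ± 0.111% of excitatory neurons, against 27.2%, 35.2% and 3.05% without thinning.

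Shares in microglia and excitatory neurons were 1.87 ± 1.26% and 0.0474 ± 0.0556% for Tap1, and 6.90 ± 2.30% and 0.449 ± 0.194% for Tap2. They were 9.38 ± 3.09% and 0.908 ± 0.305% for Tapbp. For Nlrc5 they were 1.98 ± 1.10% and 0.787 ± 0.256%, the closest of the 7 genes. In oligodendrocytes (median 2203.5 UMIs), the shares of Tap1 (0.0414 ± 0.0595%), Tap2 (0.252 ± 0.215%) and Nlrc5 (0.487 ± 0.366%) were at or below those of excitatory neurons. How much of these counts is free RNA was not measured.

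**Figure D3:**
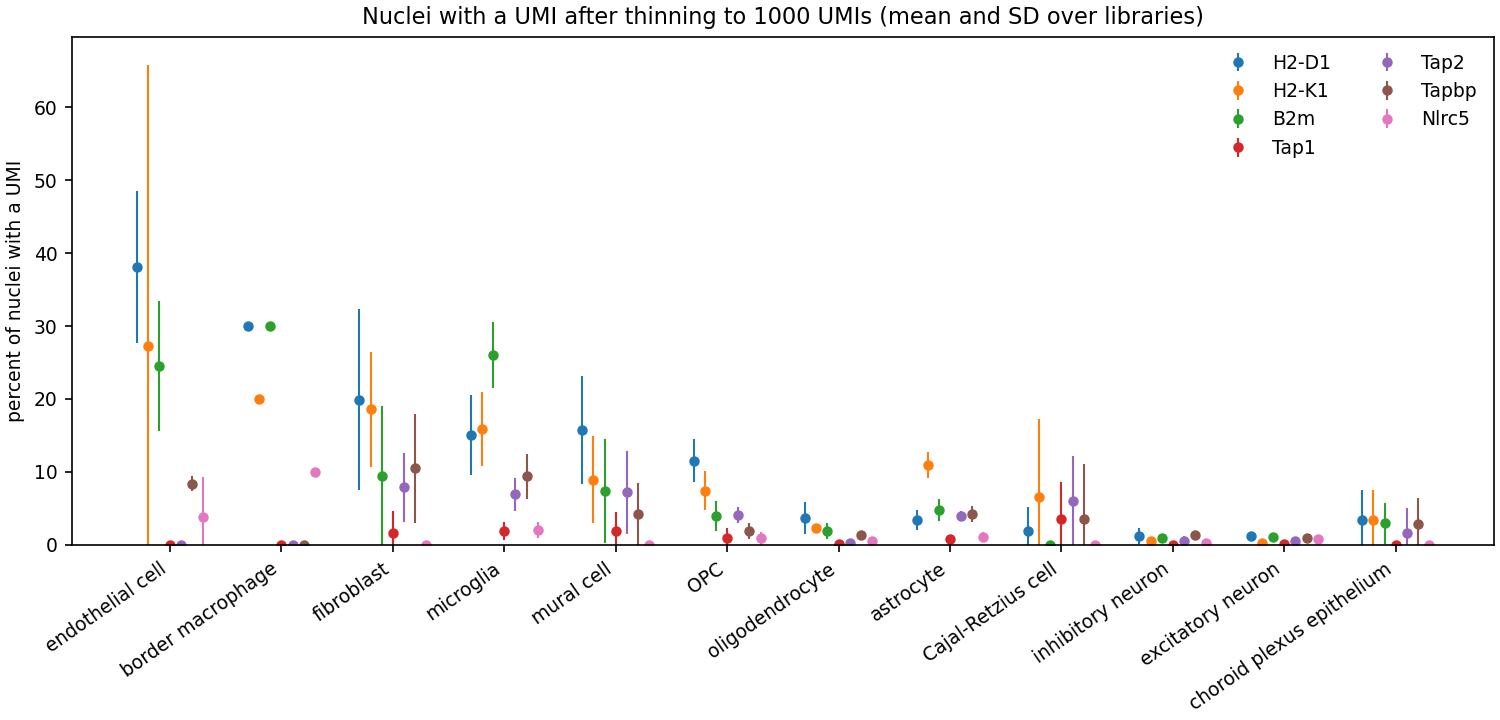
The y axis is the percent of nuclei with at least 1 UMI of each class I gene (colours) after thinning to 1000 UMIs, by gated cell type on the x axis, as the mean with SD over libraries (no bar at n = 1). Microglia reach 26.0% for B2m, while excitatory neurons stay at 1.24% or less for every gene.

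Most members, Nlrc5 apart, varied together over cell types. Over 57 sums of a type in a library (10 types, sums with at least 20 nuclei), Pearson's r of log2(CPM + 1) was 0.817 between H2-D1 and H2-K1, 0.755 between H2-K1 and B2m and 0.878 between Tap1 and Tap2. For Nlrc5 it ranged from 0.0878 (with Tap2) to 0.384 (with B2m). Sums from the same library share its depth and free RNA, and sums of the same type share its biology, so these are descriptions. Among 13164 genes, genes much like H2-D1 were Fmnl3 (r = 0.858), Col27a1 (0.849), Itgb1 (0.834) and Hsp90b1 (0.833). Those most like H2-K1 were Gnai2 (0.903), Cd164 (0.890), Tcf7l2 (0.875), Crlf3 (0.869) and Cd81 (0.865). Those most like B2m were Pros1 (0.936), Etv6 (0.876), Eif2ak2 (0.871), Peli2 (0.868) and Ddx58 (0.865).

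Other genes of the pathway came from lists set before these fits. Of 10 genes for class I loading and peptide supply, 4 were highest in microglia, among them Canx, a chaperone (314 ± 46.8 CPM), and Psmb9, an immunoproteasome subunit (34.0 ± 4.64 CPM). Calr, another chaperone, was highest in OPC (605 ± 148 CPM). The highest type of a gene is uncertain where border macrophages come in, since they had 1 library with 10 nuclei. Of 12 other genes listed as class I-like, 4 were highest in border macrophages, 3 in microglia, 2 in mural cells and 3 in endothelial cells. H2-Q4 reached 149.8 ± 41.4 CPM in endothelial cells. H2-Ke6, among the 3 in microglia, was listed by its name and encodes no class I-like chain. The class II gene H2-DMb1 was at 80.6 ± 15.9 CPM in microglia, while Cd74, H2-Aa, H2-Eb1 and H2-Ab1 were among the genes leading the border macrophage cluster. Of 20 regulators, Nlrc5 among them, 7 were highest in microglia. These were led by the interferon gamma receptor gene Ifngr1 (476 ± 129 CPM), Irf2 (379 ± 116 CPM) and Nfkb1 (343 ± 24.9 CPM). No UMI was counted for Irf8 in any type. Whether reads of Irf8 could be assigned to it was not tested, so its absence from microglia is not shown. Of 5 genes listed as receptors for class I, 3 were highest in microglia, led by Klrd1 (16.0 ± 9.53 CPM).

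WT and GKO mice were compared to ask whether loss of Gsap goes with a change in these genes. The test was edgeR's quasi-likelihood test on counts summed per mouse and type, in the 8 types with 10 or more nuclei in all 6 mice. The threshold was a Benjamini-Hochberg adjusted p below 0.05 together with an absolute log2 fold change above 0.3. None of the 7 genes passed it in any of these types, and no other gene did either (0% in each). With edgeR, 221 of 7954 genes in microglia had an unadjusted p under 0.05, as did 219 of 17443 in excitatory neurons, 207 of 11535 in astrocytes, 235 of 8778 in OPC and 151 of 11580 in oligodendrocytes. With DESeq2 these counts were 47, 118, 45, 50 and 37, and 1 gene passed the threshold, Ptprd in Cajal-Retzius cells.

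Over all nuclei, profiles followed the date more than the replicate number, and r over genes between deviations from the group mean was 0.563 for WT 1 with GKO 1. Within the second date it was 0.180 and 0.210 for the same number and 0.206 and 0.296 for different numbers. Across dates it ranged from -0.398 to -0.303. In Cajal-Retzius cells r was 0.199, 0.170 and 0.184 for the same number and below 0 for all different numbers, and fibroblasts followed neither. With a replicate block 9 genes passed over the 8 types, with a date term 3, and no class I gene did in either. The number of class I genes that passed the low count filter was 7 in microglia, astrocytes and excitatory neurons, 6 in inhibitory neurons, 5 in OPC and oligodendrocytes, 2 in fibroblasts and 0 in Cajal-Retzius cells.

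In microglia, H2-D1 was at 229.8, 182 and 188 CPM in WT 1, WT 2 and WT 3. It was at 89.4, 172 and 121 CPM in GKO 1, GKO 2 and GKO 3. All GKO mice lay below all WT mice, by a wide margin on the first date and by a narrow margin for GKO 2 on the second. The log2 fold change was -0.69 (SE 0.21, adjusted p = 1.00, range 0.193 to 1.00 over 14 alternatives).

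H2-K1 in microglia was at 228, 185 and 214 CPM in WT mice. It was at 116, 100.5 and 179.7 CPM in GKO 1, GKO 2 and GKO 3, again with no overlap, and GKO 3 lay close to WT 2. The log2 fold change was -0.66 (SE 0.20, adjusted p = 1.00, range 0.125 to 1.00 over 14 alternatives). In the second date only, a setting chosen after seeing the data, 21 genes passed in microglia, 15 lower and 6 higher in GKO, and the 6 were mitochondrial, led by mt-Nd1 (0.90) and mt-Nd3 (0.88). Mitochondrial UMIs were 1.11%, 1.19% and 0.802% of those of microglia in WT mice and 0.931%, 1.57% and 1.92% in GKO mice, and whether RNA quality plays a part in the class I levels was not tested. These fold changes of H2-D1 and H2-K1 in microglia were chosen after the values were seen, since fibroblasts were the tested type with the highest mean.

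B2m in microglia was at 366, 352 and 357 CPM in WT mice. It was at 265, 237 and 301 CPM in GKO mice, with no overlap and a smaller spread than for the heavy chains. The log2 fold change was -0.43 (SE 0.16, adjusted p = 1.00, range 0.340 to 1.00 over 14 alternatives). On the first date B2m was at 366 CPM in WT and 265 CPM in GKO, and on the second the means were 354 and 269 CPM. These 3 genes are 3 of 7 members with all GKO mice below all WT mice in microglia, where 3.38% of all tested genes had this pattern. None of the 7 was higher in all GKO mice, against 4.1% of all tested genes.

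Tap1, Tap2, Tapbp and Nlrc5 overlapped between the groups in microglia. Tap1 was at 15.1, 22.7 and 21.1 CPM in WT mice and 7.98, 19.1 and 5.67 CPM in GKO mice (log2 fold change -0.90, SE 0.51). Tap2 ranged from 57.5 to 92.5 CPM in WT and from 49.5 to 59.8 CPM in GKO (-0.44, SE 0.25). Tapbp ranged from 66.5 to 108 CPM and from 70.2 to 85.1 CPM (-0.22, SE 0.24), and Nlrc5 from 17.02 to 36.3 CPM and from 14.4 to 22.3 CPM (-0.49, SE 0.39). Over alternatives the log2 fold change ranged from -0.94 to -0.37 for H2-D1, -0.95 to -0.49 for H2-K1 and -0.53 to -0.35 for B2m. It ranged from -1.46 to -0.61 for Tap1, -0.62 to -0.26 for Tap2, -0.44 to -0.10 for Tapbp and -0.71 to -0.07 for Nlrc5. The adjusted p was 1.00 for each, and over alternatives its lowest value was 0.741 for Tap1, 0.649 for Tap2, 0.741 for Tapbp and 0.904 for Nlrc5. The log2 fold change was below 0 for 7 of 7 members in microglia, with a median of -0.49, where 49.7% of all tested genes were below 0. It was below 0 for 4 of 7 in excitatory neurons (48.7%), 6 of 7 in astrocytes (49.1%) and 3 of 5 in OPC (49.3%).

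**Figure D4:**
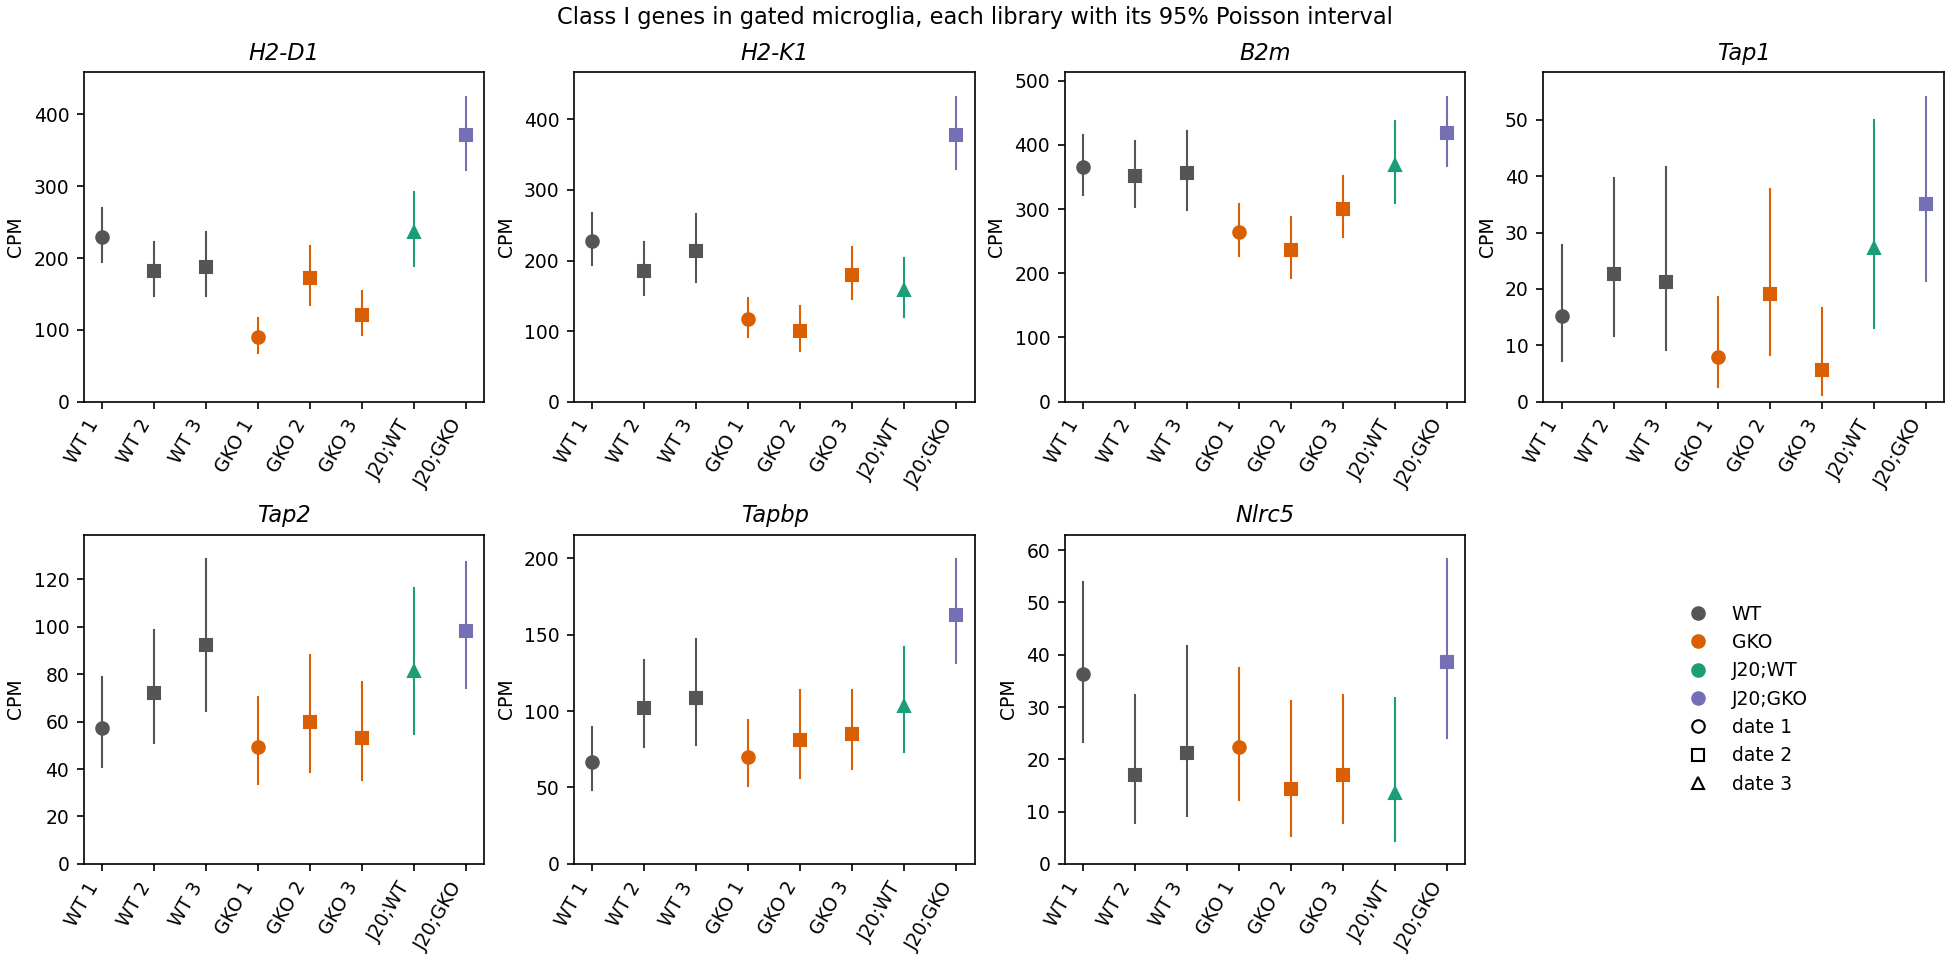
Each panel plots the CPM of a class I gene in gated microglia on the y axis for each library on the x axis, with its 95% Poisson interval for counting error. H2-D1, H2-K1 and B2m are lower in all 3 GKO libraries than in all 3 WT libraries, and J20;GKO is highest for H2-D1 (371 CPM).

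The gated microglia fell into a pair of clusters whose shares differed between libraries. Cluster 38, led by C1qa, Trem2 and C1qb, held 15.6%, 67.3% and 75.3% of the gated microglia of WT 1, WT 2 and WT 3. It held 13.3%, 25.8% and 50.3% of those of GKO 1, GKO 2 and GKO 3, 78.2% of those of J20;WT (Wilson 95% interval 71.9% to 83.4%) and 74.2% of those of J20;GKO (68.5% to 79.2%). Nearly all of the rest lay in cluster 28, led by Inpp5d, Ikzf1 and Runx1, so GKO 2 had most of its microglia there while WT 2 and WT 3 had most in cluster 38. Of the 7 members, 6 were higher in cluster 38 and Nlrc5 in cluster 28 (in 6 of 8 libraries). Cluster 38 had H2-D1 at 283 CPM, H2-K1 at 298 CPM, B2m at 460.3 CPM and Tapbp at 139 CPM over pooled nuclei, and cluster 28 had 95.5, 96.0, 203 and 53.4 CPM. The order held within 8 of 8 libraries for H2-D1, B2m and Tapbp and within 7 of 8 for H2-K1, though the gap varied, and in GKO 2 H2-D1 was at 159.6 and 151 CPM. Clusters were made with H2-D1, H2-K1 and B2m among their genes.

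Within cluster 38, H2-D1 was at 788, 212 and 206 CPM in WT 1, WT 2 and WT 3 and at 139, 159.6 and 141 CPM in GKO mice, with no overlap. H2-K1 was at 805, 228 and 217 CPM in WT and 179, 95.7 and 256 CPM in GKO, and the groups overlapped. B2m was at 975, 393 and 396 CPM in WT and 566, 343 and 408 CPM in GKO, and the groups overlapped. The other 4 members overlapped. Lower in all GKO mice were thus 1 of 7 members, against 5% of 10575 genes with at least 10 UMIs there. WT 1, with 46 nuclei there, stood far above the rest for all 3 genes.

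Within cluster 28 all 3 genes overlapped between the groups, and Nlrc5 was lower in all GKO mice (1 of 7 members, against 4.89% of 11823 genes). H2-D1 was at 94.7, 104 and 46.0 CPM in WT and 58.5, 151 and 75.6 CPM in GKO. H2-K1 ranged from 77.7 to 115 CPM in WT and from 81.1 to 101 CPM in GKO, and B2m from 161 to 239.7 CPM in WT and from 184 to 204 CPM in GKO. The part of the cluster shares in the difference over all gated microglia was not tested.

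**Figure D5:**
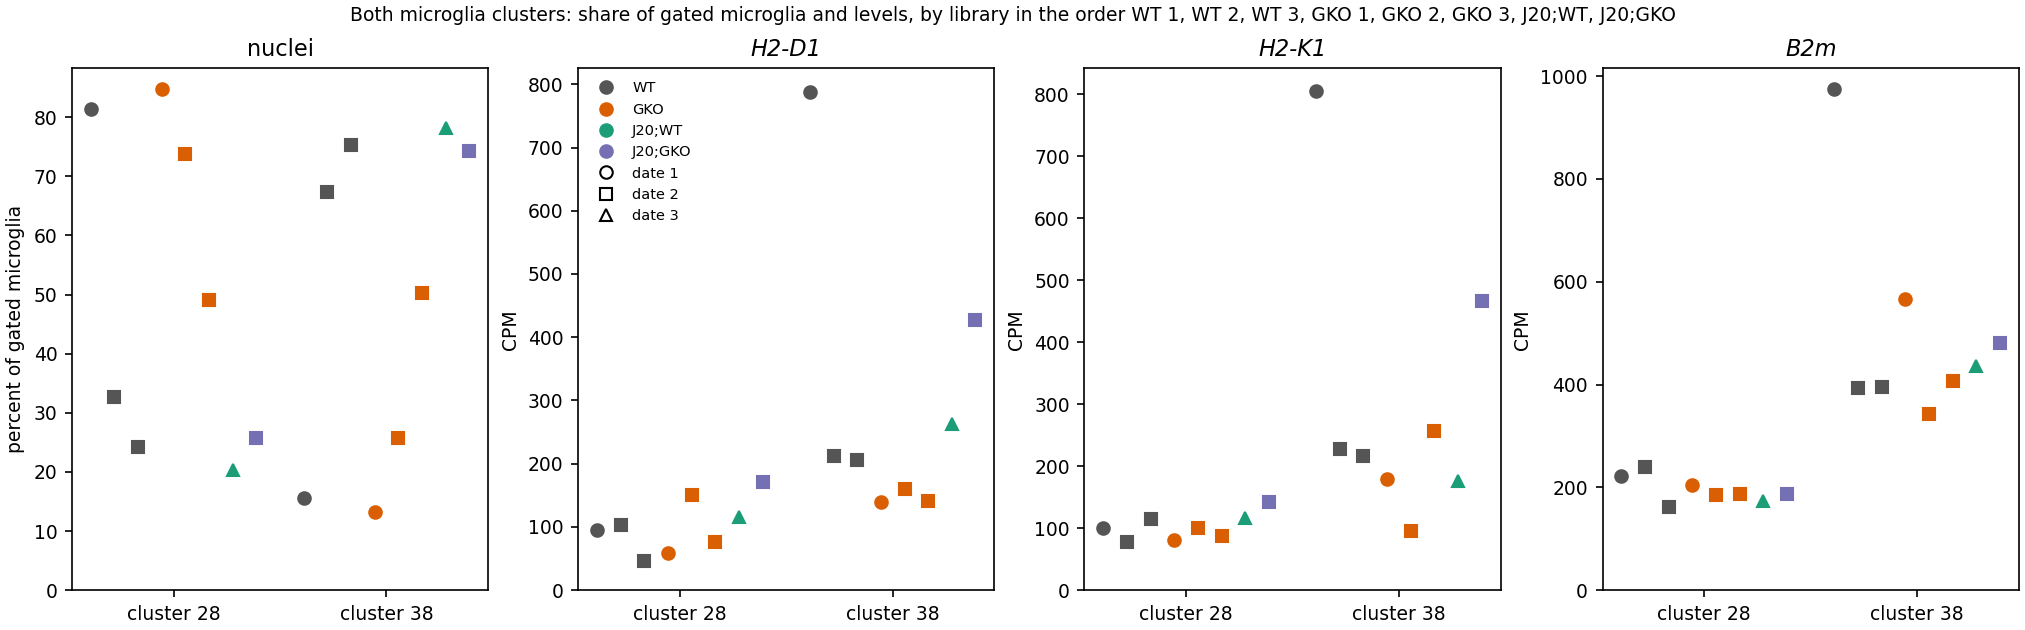
The first panel plots the percent of gated microglia in both microglia clusters for each library, and the others the CPM of H2-D1, H2-K1 and B2m within each cluster. Cluster 38 has the higher levels and holds 25.8% of the GKO 2 microglia against 67.3% in WT 2 and 75.3% in WT 3.

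In fibroblasts, the tested type with the highest heavy chain levels, H2-D1 was at 231, 94.1 and 308 CPM in WT and at 169.7, 159.7 and 216 CPM in GKO, and the groups overlapped (log2 fold change -0.21, SE 0.44). H2-K1 was at 231, 109.8 and 188 CPM in WT and at 119, 239.5 and 239.8 CPM in GKO (log2 fold change 0.05, SE 0.45). The adjusted p was 0.997 for both (lowest over alternatives 0.977 for H2-D1 and 0.751 for H2-K1), and each direction turned when some single mice were left out. Without WT 3 the log2 fold change of H2-D1 was 0.18, and that of H2-K1 was -0.19 without WT 2, -0.09 without GKO 2 and -0.13 without GKO 3. The part of the astrocyte markers in fibroblast nuclei was not tested.

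In excitatory neurons, H2-D1 was at 14.1, 17.001 and 14.2 CPM in WT and at 7.75, 11.98 and 11.4 CPM in GKO. H2-K1 was at 4.37, 2.88 and 3.01 CPM in WT and at 2.28, 2.08 and 2.29 CPM in GKO. Neither gene overlapped between the groups, which makes 2 of 7 members lower in all GKO mice, against 3.38% of all tested genes, and 0 of 7 higher, against 1.5%. The other 5 overlapped, and Nlrc5 had a GKO mean of 9.05 ± 1.24 CPM against 7.60 ± 0.314 CPM in WT (n = 3 each).

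In astrocytes, H2-D1 was at 56.5, 48.1 and 42.4 CPM in WT and at 31.1, 38.4 and 29.7 CPM in GKO. H2-K1 was at 115, 134 and 118 CPM in WT and at 86.6, 109 and 113 CPM in GKO. Tapbp was at 40.2, 41.9 and 40.5 CPM in WT and at 31.8, 33.2 and 27.2 CPM in GKO. All 3 were without overlap, so 3 of 7 members were lower in all GKO mice, where 3.79% of all tested genes were, and 0 of 7 were higher, against 3.54%.

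In OPC, H2-K1 and B2m, 2 of 5 tested members, were lower in all GKO mice, against 4.37% of all tested genes, and 0 of 5 were higher, against 3.57%. B2m was at 82.7, 37.0 and 49.7 CPM in WT and at 28.0, 31.8 and 36.3 CPM in GKO. H2-D1 overlapped in OPC, with means of 111 ± 17.1 CPM in WT and 110.3 ± 30.04 CPM in GKO. In inhibitory neurons B2m was at 11.6, 11.1 and 11.9 CPM in WT and at 5.89, 6.63 and 5.40 CPM in GKO, 1 of 6 tested members lower in all GKO mice (3.59% of all tested genes). Nlrc5 was higher in all GKO mice there, at 6.28, 7.58 and 5.68 CPM against 3.75, 4.36 and 5.65 CPM (1 of 6 members, against 1.93% of all tested genes), and 4 of 6 members had a log2 fold change below 0, against 48% of all tested genes.

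In Cajal-Retzius cells no member passed the filter (0 of 0 tested, where 4.38% of all tested genes were lower and 4.65% higher in all GKO mice). H2-D1 had higher values there in all GKO mice, at 38.0, 80.1 and 44.2 CPM against 0, 37.6 and 0 CPM. These rest on few UMIs (17 over all 127 nuclei), too few to tell a difference in level from depth. Tapbp was lower there in all GKO mice, but on 1 UMI in each GKO mouse and on 1, 1 and 3 UMIs in WT mice, too few to tell a difference in level from depth. In fibroblasts 0 of 2 tested members were higher in all GKO mice (3.28% of all tested genes). Tap1, which was not tested there, was at 16.97, 53.2 and 23.98 CPM in GKO against 0, 15.7 and 0 CPM in WT. All 157 fibroblasts held only 7 Tap1 UMIs, too few to tell a difference in level from depth. Over all nuclei, H2-D1, H2-K1 and Tapbp, 3 of 7 members, were lower in all GKO mice, against 3.56% of all tested genes, and 0 of 7 were higher, against 1.59%.

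Oligodendrocytes showed libraries that stood apart rather than groups. No member was lower (0 of 5, against 3.67% of all tested genes) or higher (0 of 5, against 2.62%) in all GKO mice, and 4 of 5 had a log2 fold change below 0 (51.7% of all tested genes). H2-D1 was at 88.5 CPM in WT 1 and 108 CPM in J20;GKO, and between 18.0 CPM (GKO 1) and 33.6 CPM (WT 3) in the other libraries. B2m was at 55.5 CPM in WT 1 and 31.5 CPM in J20;GKO, and between 4.42 CPM (GKO 3) and 18.4 CPM (J20;WT) in the others. Most oligodendrocytes of the first date lay in a cluster led by Plin4 and Itgad, with 82.9% of those of WT 1 and 84.3% of those of GKO 1. It also held 16.4% of those of GKO 2 and 7.29% of those of J20;GKO. Within it H2-D1 was at 83.3 CPM in WT 1 and 17.3 CPM in GKO 1. J20;GKO, whose nuclei lay mostly in the other oligodendrocyte clusters, had 128 and 102 CPM of H2-D1 in these.

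Genes that interferon induces were set beside the class I genes from a list of 28. Their CPM summed over all nuclei was 164, 96.7 and 116 in WT 1, WT 2 and WT 3, 110.2, 105 and 85.9 in GKO 1, GKO 2 and GKO 3, 101 in J20;WT and 111 in J20;GKO. WT 1 was the highest library, and the groups overlapped. None of the 25 tested genes passed the threshold, 24 had a log2 fold change below 0 (49.3% of all tested genes did), and the median was -0.61. In microglia the sum was 1145, 652 and 706 CPM in WT, 592, 636 and 675 CPM in GKO, 649 CPM in J20;WT and 1000.1 CPM in J20;GKO, and the groups overlapped. Over all nuclei, Ifi27, the listed gene with the highest counts there, was at 53.8, 38.9 and 37.7 CPM in WT and at 42.4, 44.3 and 33.9 CPM in GKO.

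In microglia, no gene of the other lists passed the threshold in the fit of all 6 mice, and Calr, for loading, passed in the second date only (log2 fold change -0.65). Of 8 tested genes listed as class I-like, 7 had a log2 fold change below 0, against 49.7% of all tested genes. Of 7 tested genes for loading and peptide supply, 5 did. H2-T23 was at 68.0, 60.5 and 97.8 CPM in WT and at 28.7, 47.9 and 41.6 CPM in GKO (log2 fold change -0.94, SE 0.28, adjusted p = 1.00), and the groups did not overlap. H2-Q4, at 33.3, 26.5 and 21.1 CPM in WT and at 14.4, 11.96 and 15.1 CPM in GKO, did not overlap either (-0.99, SE 0.37, adjusted p = 1.00). H2-T23 and H2-Q4 were chosen after their values were seen, and are 2 of 8 tested genes without overlap, against 7.48% of all tested genes in either direction. Class II genes were uneven between libraries, with a summed level of 594, 170.2 and 235 CPM in WT and 487, 115 and 272 CPM in GKO.

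The J20 libraries, 1 mouse each, entered no test. In microglia H2-D1 was at 236 CPM in J20;WT (95% Poisson interval 189 to 292) and 371 CPM in J20;GKO (323 to 425). H2-K1 was at 158 CPM (119.6 to 204) and 378 CPM (329.6 to 432). For both genes the intervals did not overlap, and J20;GKO was the higher library. B2m was at 369 CPM (310.0 to 437) and 419 CPM (367 to 475), Tapbp at 103 CPM (73.1 to 142) and 163 CPM (131 to 199.6), and Nlrc5 at 13.6 CPM (4.41 to 31.7) and 38.5 CPM (24.1 to 58.3), with intervals that overlapped. Such intervals cover counting error and not differences between mice, and the file dates and sex differ between these libraries too.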

How the data were processed

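The deposited matrices hold counts of UMIs per gene and nucleus, made by the authors with Cell Ranger on mm10 and not normalised; the members and gene lists were chosen with earlier results of these data known. Nuclei with at most 5% mitochondrial UMIs and 200 to 7500 genes were kept, as in the study's methods. A nucleus was gated to a type when at least 3 of its markers were detected, its score was at least 0.15 and the next type's score was at most 0.65 of the first. Of gated microglia, 28 lay just inside that limit and 23 nuclei just outside, and the median level of markers was 0 for 11 of 13 other types. Doublets were kept; Scrublet's calls were left out as an alternative, with 0 calls in GKO 1 and 1 in WT 1. Clusters came from scanpy 1.11.5 (2000 variable genes, 30 components, 15 neighbours, Leiden resolution 1.5). Levels are CPM of summed counts with SD over libraries. Tests used edgeR 4.0.16 (TMM, filterByExpr, robust quasi-likelihood) and, as an alternative, DESeq2 1.42.0, under R 4.3.3, with Benjamini-Hochberg adjustment over all genes of a type. Named genes were all members, each member's fold change in its highest tested type, up to 4 top genes of each list in the type discussed and the 5 most similar genes. Other alternatives were RLE scaling, no filter, a replicate block, a date term, leaving out each mouse, named Leiden clusters, mean CPM over nuclei, a minimum of 1000 UMIs and thinning to 2000 UMIs. Both tests were tried on simulated data, where they recovered changed genes in excitatory neurons and microglia and none in fibroblasts. Fibroblasts thus had little power. Whether either test would recover fold changes of the size seen for the class I genes in microglia was not tested. Promoters are from RefSeq and gene positions from GENCODE.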

Additional observations from a re-analysis of the deposited data

Results flagged for a closer look

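Differences that ran in opposite directions in different groups are given here. Between WT and GKO, H2-D1 and H2-K1 were tested in microglia. H2-D1 was also tested in excitatory neurons and astrocytes, and none of these differences passed the threshold. H2-D1 in Cajal-Retzius cells and the J20 libraries entered no test. Whether the directions differ was not tested. In microglia, J20;GKO had 1.57 times the H2-D1 level of J20;WT and 2.40 times the H2-K1 level, with Poisson intervals apart, while all GKO mice lay below all WT mice (0.639 and 0.632 times the WT mean). The J20 libraries are 1 mouse each of different sex and file date.

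H2-D1 in Cajal-Retzius cells had higher values in all GKO mice, with a GKO mean above the WT mean by 41.6 CPM. These values rest on 0, 2 and 0 UMIs in WT mice and 3, 6 and 3 in GKO mice. Such counts are too few to tell a difference in level from depth, so an opposite direction to other types is not shown. In excitatory neurons, astrocytes and microglia all GKO mice were lower, with GKO minus WT at -4.74, -15.9 and -72.1 CPM.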

How the results depend on the processing

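No class I gene passed the threshold under any setting. Genes of any kind past it, 0 over the 8 types, numbered 1 with DESeq2, 7 with no filter, 9 with the replicate block, 3 with the date term, 0 to 3 with a mouse left out and 29 in the second date only, an alternative chosen after seeing the data. In microglia the direction of H2-D1 and H2-K1 was the same in 28 of 28 alternatives. These alternatives reuse the same mice, whose groups did not overlap and whose values had been seen. The direction could thus hardly turn, and its constancy adds no support for a difference.

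In fibroblasts the direction of both heavy chains turned. With a mouse left out, the log2 fold change of H2-D1 ranged from -0.57 to 0.18 and that of H2-K1 from -0.19 to 0.43, and with Leiden clusters that of H2-K1 was -0.37.

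With Leiden clusters, border macrophages had 1023 CPM of H2-D1, 912 CPM of H2-K1, 568 CPM of B2m and 159.6 CPM of Nlrc5. Choroid plexus epithelium had 21.3 CPM of H2-D1, 41.6 CPM of H2-K1 and 4.28 CPM of Tap1, Cajal-Retzius cells 4.14 CPM of B2m and mural cells 1.37 CPM of Nlrc5. As a mean over nuclei, H2-D1 was at 688 CPM in endothelial cells and Tapbp at 14.5 CPM in border macrophages.

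Thinned to 2000 UMIs, where each nucleus holds more UMIs by construction and 1070 of 1994 microglia are left out (37 at 1000 UMIs), shares were 34.0% for H2-K1 in fibroblasts and, in microglia, 49.1% for B2m, 4.12% for Tap1, 9.94% for Tap2, 18.3% for Tapbp and 3.64% for Nlrc5.

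Groups of 3 mice, 1 of each group on another date, limit every comparison, and sex and date cannot be told apart.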

Other observations

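Values that belong to no comparison concern nuclei outside the tested types. Ungated nuclei held H2-D1 at 28.5 ± 5.56 CPM and H2-K1 at 24.8 ± 5.23 CPM (n = 8 libraries), and J20;WT had the largest share of them (28.0% of its nuclei). The 13 ependymal nuclei held 14 H2-K1 UMIs, which is 156 CPM (95% Poisson interval 85.3 to 262), and 15 Tap2 UMIs, which is 167 CPM (93.5 to 276). Most of these nuclei (76.9%) fell into the smaller astrocyte cluster. Ttr, from choroid plexus, varied between 2.27 CPM (J20;GKO) and 1606 CPM (J20;WT) over all nuclei.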
